A study of Mus musculus with 6 samples.

Results

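The levels of 10 genes of autophagy and mitophagy were followed in epididymal white adipose tissue: Ulk1, Map1lc3a, Map1lc3b, Sqstm1, Nbr1, Optn, Bnip3, Bnip3l, Fundc1 and Pink1. They are a list named by symbol, with no threshold on a measured value, drawn up with earlier results of these data known, and make up 10 of the 54356 genes and 72 of the 140137 transcripts joined to the annotation. Polyadenylated RNA came from the epididymal fat pad, a visceral depot beside the testis, of 6 wild type male C57BL/6N mice aged 20 weeks. The cold group holds 3 mice (cold 7, cold 12 and cold 16), which the labels place alone at 4 °C for 24 h. The ctrl group holds 3 mice (ctrl 5, ctrl 6 and ctrl 10), and the general housing is given as 22 to 24 °C; the treatment text is the same for all 6 samples, and no source used here says whether the controls were kept singly. Each number is a mouse identifier, so the p-values measure the spread between these animals.

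Libraries held 19735167 to 28608052 estimated counts, and mitochondrially encoded genes took 3.85 to 5.71% of the counts joined to genes. Adipocyte markers summed to 45593 to 51337 CPM (estimated counts scaled to library size with TMM factors) in ctrl and 46974 to 50472 CPM in the cold, so the markers of the labelled tissue were abundant in all 6 libraries. Of these 10 markers 1 rose and 1 fell, against 2.32% and 0.566% of all genes tested. Higher in the cold were 3 and lower 7, with log2 fold changes from -0.59 to 0.61 (median -0.04). At an unadjusted p under 0.05 by edgeR stood 5 of the 10, against 17.6% of all genes tested. The most abundant of the 10 was the fatty acid carrier Fabp4, at 11938 ± 1077 CPM in ctrl and 14867 ± 1325 CPM in the cold (SD, n = 3 each). Markers of epithelium and of motile cilia were higher in every cold library: 8 epithelial markers summed to 9.30 to 36.9 CPM in ctrl and 104.0 to 210.1 CPM in the cold, and 7 motile cilium markers to 3.13 to 22.1 CPM in ctrl and 50.3 to 151.4 CPM in the cold. In both lists 3 genes rose, against 2.32% of all genes tested. All genes tested in both lists had higher means in the cold (median log2 fold changes 3.12 and 3.53). At an unadjusted p under 0.05 by edgeR stood 8 of 8 and 7 of 7, against 17.6% of all genes. Their most abundant genes, Krt8 and Foxj1, stood at log2 fold changes of 2.71 and 3.95 (adjusted p = 0.083 and 0.183). The part of such cells in the results below was not tested.

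Autophagy encloses cytoplasm in a double membrane, the autophagosome, which then fuses with the lysosome. The kinase ULK1 starts it, proteins of the LC3 family are attached to the growing membrane, and receptor proteins that bind both LC3 and a cargo choose what is taken in. In mitophagy the cargo is a mitochondrion, marked either by the PINK1 kinase and ubiquitin or by receptors that sit in the outer mitochondrial membrane. In white fat mitophagy is known for the loss of mitochondria when beige adipocytes return to a white state. Much of this control acts on proteins, through phosphorylation, lipid attachment and degradation, which a measurement of mRNA does not read.

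None of the 10 genes passed the threshold between cold and ctrl, in edgeR's quasi-likelihood fit over 17852 genes (Benjamini-Hochberg adjusted p from 0.252 to 0.964). Over all genes tested 2.89% passed, 2.32% higher and 0.566% lower in the cold. Of the 10, 8 had lower and 2 had higher mean levels in the cold, with log2 fold changes from -0.17 to 0.19 and a median of -0.06, against -0.01 over all genes tested. At an unadjusted p under 0.05 stood 2 of the 10, Map1lc3b and Optn, a share close to the 17.6% of all genes. DESeq2 called 0 of the 10 and 7.51% of all genes. At an unadjusted p under 0.05 by DESeq2 stood 1 of the 10, against 2783 of 17846 over all genes. In bulk tissue, fewer cells of a type and less RNA per cell cannot be told apart.

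All 10 genes were well covered, with 388 to 14461 estimated counts per library. The 95% intervals of the 10 fold changes reached no lower than -0.41 and no higher than 0.37 on the log2 scale, that is from 24.6% below to 29.4% above the control level. None of these intervals reached a 1.5-fold difference. In data simulated from the same means and library sizes, the test over all genes found 32% of genes changed 1.5-fold, and 64% of those changed 2-fold. The changed genes were picked at random over all genes, so these shares are not those of the 10 genes. Smaller changes were not simulated.

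**Figure D1:**
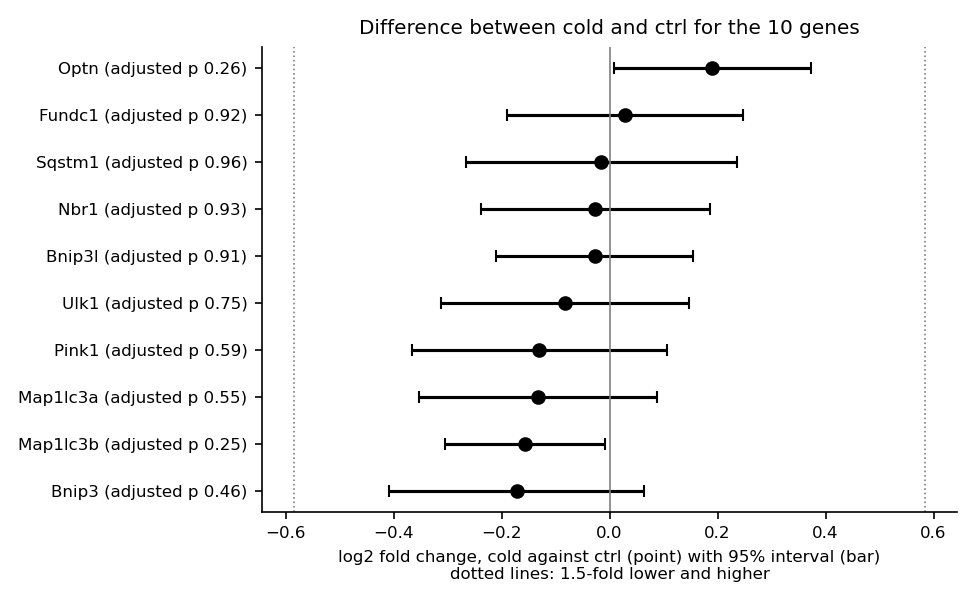
Log2 fold change of the 10 genes between cold and ctrl (points) with 95% intervals (bars), from edgeR's fit over all genes. The points lie between -0.17 and 0.19, and the intervals of Map1lc3b and Optn alone leave out 0, with adjusted p = 0.252 and 0.260.

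Per unit of transcript length, Bnip3 was the most abundant of the 10 and Fundc1 the least. In TPM, the deposited scale that divides by transcript length so that genes can be set side by side, the mean over 6 libraries was 555 ± 61.4 for Bnip3, 352 ± 35.1 for Sqstm1 and 292 ± 28.0 for Map1lc3a. It was 212 ± 21.05 for Pink1, 187 ± 20.8 for Bnip3l and 155 ± 13.7 for Map1lc3b. Lower down stood Nbr1 at 59.7 ± 3.72, Optn at 38.6 ± 3.42, Ulk1 at 31.3 ± 4.58 and Fundc1 at 25.5 ± 3.25 TPM (SD over the 6 libraries of both groups). The ranges of Map1lc3b and Nbr1 did not overlap, nor did those of Bnip3 and Sqstm1, Map1lc3a and Pink1, or Nbr1 and Optn. The ranges of the other neighbours overlapped, though within a library Sqstm1 stood above Map1lc3a in 6 of 6, and Pink1 above Bnip3l in 5 of 6. Bnip3 had a higher TPM than 98.8% of all genes tested, and Fundc1 than 71.1%. These gene values sum coding and noncoding transcripts. The coding transcripts Bnip3-201, Bnip3l-201 and Map1lc3a-201 held on average 95.5, 34.4 and 40.9% of the TPM of their genes. The order is therefore not one of coding transcripts alone. In CPM Map1lc3a lay below Map1lc3b in every library, with means of 167 against 215 in ctrl and 152 against 193 in the cold.

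**Figure D2:**
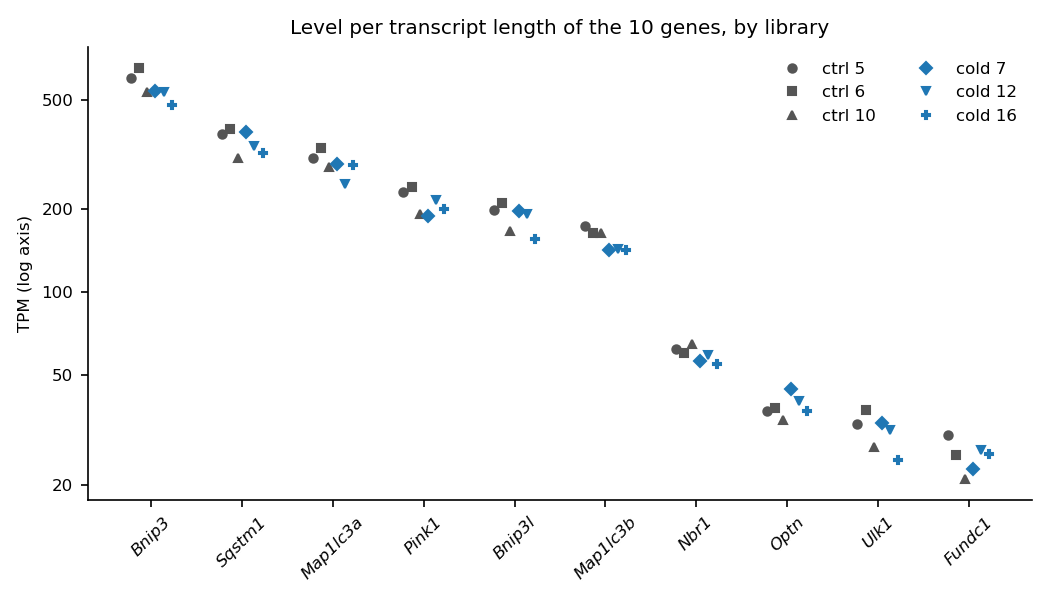
TPM of the 10 genes in each library on a log axis, ordered by the mean over 6 libraries (grey, ctrl; blue, cold; each mouse has its own symbol). The 6 highest genes lie at 142 TPM or above in every library, and Nbr1, Optn, Ulk1 and Fundc1 at 64.8 TPM or below.

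Ulk1 encodes the kinase that starts autophagosome formation (chromosome 5, 110784488 to 110810097, GRCm38, minus strand). It stood at 71.2, 86.2 and 68.3 CPM in ctrl 5, ctrl 6 and ctrl 10, and at 71.9, 74.9 and 66.5 CPM in cold 7, cold 12 and cold 16. The groups overlapped, with ctrl 6 above all other libraries. Cold against ctrl gave a log2 fold change of -0.08 (adjusted p = 0.749; SE 0.10), and 0.04 without ctrl 6. One transcript, Ulk1-201, held 94.3 ± 1.31% of the gene's counts in ctrl and 94.1 ± 1.85% in the cold (SD, n = 3 each).

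Map1lc3a and Map1lc3b encode LC3A and LC3B, the ubiquitin-like proteins that are attached to the autophagosome membrane and bind the receptors. Map1lc3b (chromosome 8, 121590361 to 121598760, plus strand) stood at 221, 212 and 213 CPM in ctrl 5, ctrl 6 and ctrl 10. It stood at 196, 191 and 193 CPM in cold 7, cold 12 and cold 16. Every cold library lay below every control, with little spread in either group. Such a lack of overlap was seen in 2 of the 10 genes, Map1lc3b and Optn, and in 23.8% of all genes tested. Its log2 fold change of -0.16 (SE 0.06) had a 95% interval of -0.30 to -0.01 and did not pass over all genes (adjusted p = 0.252). On the TPM scale the groups did not overlap either, at 167 ± 5.59 in ctrl and 143 ± 0.90 in the cold (SD, n = 3 each).

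Map1lc3a (chromosome 2, 155276297 to 155278073, plus strand) stood at 163, 183 and 154 CPM in ctrl 5, ctrl 6 and ctrl 10. The cold libraries stood at 157, 137 and 163 CPM in cold 7, cold 12 and cold 16. The groups overlapped, with cold 12 lowest and ctrl 6 highest. Between groups the log2 fold change was -0.13 (SE 0.10, adjusted p = 0.552). The within-library ratio of the 2 paralogs, free of library scaling, was 1.77, 2.02 and 1.75 TPM of Map1lc3a per TPM of Map1lc3b in ctrl 5, ctrl 6 and ctrl 10. It was 2.06, 1.72 and 2.02 in cold 7, cold 12 and cold 16, with coding and noncoding transcripts of both genes summed. This log2 ratio differed by 0.07 between groups, less than its spread between mice (exact permutation test, two-sided, p = 0.80, adjusted over 2 ratios 0.80, smallest possible p 0.10).

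Map1lc3a had 2 abundant transcripts that begin in different places. The protein-coding Map1lc3a-201 held 51.6 ± 0.24% of the gene's counts in ctrl and 54.1 ± 4.56% in the cold, and Map1lc3a-203, annotated as a processed transcript without a coding sequence, 43.8 ± 2.03% and 40.7 ± 4.73% (SD, n = 3 each). By TPM the shorter Map1lc3a-203 was the larger, with 54.8 ± 2.60% in ctrl and 50.9 ± 5.09% in the cold. In cold 12 its share of counts was lowest, at 36.6%, and in cold 7 highest, at 45.9%, so the groups overlapped. Usage of neither passed (adjusted p = 1.00 by edgeR). Map1lc3a-203 starts inside the first intron of Map1lc3a-201 and runs on into its second exon. The stretch that only this start gives (chromosome 2, 155276889 to 155276957, plus strand, GENCODE M21 transcript sequence on GRCm38) is shown because reads over it are what separate the 2 transcripts at this end.
Map1lc3a-203: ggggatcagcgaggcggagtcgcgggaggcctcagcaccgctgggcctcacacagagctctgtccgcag
No exon of another annotated transcript overlaps these 69 bases.

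Map1lc3b-201 held 82.5 ± 0.76% of the gene's counts in ctrl and 83.6 ± 0.65% in the cold (SD, n = 3 each), with every cold library above every control but a usage test that did not pass (adjusted p = 1.00). Of the 16 transcripts of the 10 genes with a mean share of at least 10%, it was the 1 whose groups did not overlap in share, against 11.3% of all 18643 such transcripts tested. The 3′ side of Map1lc3b meets Zcchc14 on the opposite strand, with 58 exon bases in common. Zcchc14 had 37.6% as many counts and a log2 fold change of -0.19 (adjusted p = 0.398). The kit marks strand, but no source used here gives the strand setting of the counting, so reads in those bases may be shared. Of the 31-base windows of Map1lc3b-201, 16.1% also occur in transcripts of other genes.

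The cytosolic receptors are adaptor proteins that bind ubiquitin on the cargo and LC3 on the membrane. Optineurin, Optn (chromosome 2, 5020642 to 5064051, minus strand), known for clearing bacteria and PINK1-marked mitochondria, stood at 63.3, 68.7 and 61.3 CPM in ctrl 5, ctrl 6 and ctrl 10. Cold 7 stood at 79.3 CPM, and cold 12 and cold 16 both at 70.6 CPM. Every cold library lay above every control. Its log2 fold change of 0.19 (SE 0.08, 95% interval 0.01 to 0.37) did not pass over all genes (adjusted p = 0.260). On the TPM scale the groups overlapped, because cold 16 at 37.1 TPM lay below ctrl 6 at 38.0 and ctrl 5 at 37.3 TPM. Optn-202 held 88.2 ± 1.88% of the gene's counts in ctrl and 86.7 ± 1.30% in the cold (SD, n = 3 each).

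Sqstm1 encodes p62, the receptor that gathers ubiquitinated proteins into bodies and is itself degraded with them (chromosome 11, 50199366 to 50210827, minus strand). It stood at 443, 489 and 380 CPM in ctrl 5, ctrl 6 and ctrl 10, and at 472, 415 and 411 CPM in cold 7, cold 12 and cold 16. The cold libraries lay inside the range of the controls. Its log2 fold change was -0.02 (SE 0.11, adjusted p = 0.964) and changed sign in 4 of the 6 fits with 1 library left out. Sqstm1-202 held 82.9 ± 1.05% and 82.7 ± 0.36% of its counts and Sqstm1-201 11.5 ± 0.35% and 11.4 ± 0.22% in ctrl and cold (SD, n = 3 each). Neither share differed between the groups by more than its spread.

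Nbr1, the p62 relative that takes part in the clearance of protein bodies and peroxisomes (chromosome 11, 101552149 to 101581951, plus strand), stood at 117, 114 and 130 CPM in ctrl 5, ctrl 6 and ctrl 10. Cold 7, cold 12 and cold 16 stood at 118, 129 and 106 CPM, so the groups overlapped (log2 fold change -0.03, SE 0.09, adjusted p = 0.928). On the TPM scale they did not: 62.4, 60.2 and 64.8 TPM in ctrl 5, ctrl 6 and ctrl 10 stood against 56.3, 59.4 and 54.8 TPM in cold 7, cold 12 and cold 16. A lack of overlap in TPM was seen in 2 of the 10 genes, Nbr1 and Map1lc3b, and in 22.2% of all genes tested. With an offset for transcript length the log2 fold change of Nbr1 was -0.10 (adjusted p = 0.564). Nbr1 was also the most divided into transcripts, 21 in the files, of which Nbr1-206 held 35.7 ± 1.34% of counts in ctrl and 37.2 ± 2.72% in the cold, Nbr1-217 31.9 ± 1.28% and 33.4 ± 9.94%, and Nbr1-208, annotated for nonsense-mediated decay, 16.9 ± 1.23% and 14.0 ± 3.72% (SD, n = 3 each). The spread of Nbr1-217 among cold mice, from 23.6% in cold 7 to 43.5% in cold 16, was wider than the difference between the group means.

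The outer membrane receptors bind LC3 directly and need no ubiquitin. Bnip3 (chromosome 7, 138890836 to 138909519, minus strand), a classic hypoxia-induced gene, stood at 545, 646 and 502 CPM in ctrl 5, ctrl 6 and ctrl 10. It stood at 492, 507 and 503 CPM in cold 7, cold 12 and cold 16. The cold libraries lay within 15.5 CPM of each other and the controls spread over 144 CPM, and the 2 groups met at ctrl 10. The log2 fold change of -0.17 (SE 0.10, adjusted p = 0.461) was the lowest of the 10, and it was -0.05 without ctrl 6. Bnip3-201 held 98.5 ± 0.96% of counts in ctrl and 98.6 ± 0.57% in the cold (SD, n = 3 each). Of its 31-base windows 26.5% also occur in 4 pseudogenes, each of which was given 0 to 11.0 counts in all 6 libraries together.

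The stretch before the Bnip3 start is shown because it carries the letters of both a hypoxia response element and an E-box, and because Bnip3 is set beside hypoxia-induced genes below. It runs from the far end of the RefSeq promoter window to the first annotated Bnip3 exon base, chr7:138909520-138909756 (GRCm38.p6, minus strand, RefSeq), with capitals marking the match.
Bnip3 promoter: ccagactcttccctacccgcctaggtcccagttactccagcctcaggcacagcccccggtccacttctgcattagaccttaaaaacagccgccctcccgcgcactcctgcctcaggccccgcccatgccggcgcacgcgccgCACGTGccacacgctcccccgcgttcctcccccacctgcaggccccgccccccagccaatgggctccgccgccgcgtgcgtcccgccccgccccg
The motif ACGTG (hypoxia response element core, either strand) lies in the 250 bases before the start of Bnip3 and Nbr1, 2 of the 8 genes found in the RefSeq promoter table, and in 16.6% of all 32851 windows. CACGTG, the E-box of the CLEAR element of lysosomal genes, which contains ACGTG on both strands, lies in Bnip3 alone of the 8 and in 6.02% of all windows. TGACNNNGC (antioxidant response element core) lies in 0 of the 8 and in 10.2% of all windows. Such a match is a string of letters, not a measured binding site.

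Bnip3l encodes NIX, the receptor that removes mitochondria from maturing red blood cells (chromosome 14, 66985239 to 67008877, minus strand). It stood at 173, 181 and 157 CPM in ctrl 5, ctrl 6 and ctrl 10, and at 169, 173 and 159 CPM in cold 7, cold 12 and cold 16. The groups overlapped fully (log2 fold change -0.03, SE 0.08, adjusted p = 0.906). Within a library Bnip3 stood 3.00, 3.11 and 3.20 times as high as Bnip3l in TPM in ctrl 5, ctrl 6 and ctrl 10. In cold 7, cold 12 and cold 16 it stood 2.73, 2.78 and 3.05 times as high, with coding and noncoding transcripts of both genes summed. The log2 ratio was lower by 0.12 in the cold, with cold 16 above ctrl 5 (exact permutation test, two-sided, p = 0.20, adjusted over 2 ratios 0.40).

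Among the 10 genes, 1 was called for transcript usage, Bnip3l, through a single minor transcript. Bnip3l-207, a processed transcript of 492 nt, had 32.6, 25.5 and 38.6 estimated counts in ctrl 5, ctrl 6 and ctrl 10, and was listed at 0 in all 3 cold libraries. That is 0.777, 0.628 and 1.27% of the counts of Bnip3l in those controls. Against a floor of 3 counts over the cold group its level was at least 37.0-fold higher in ctrl, a bound for counting error only. Its usage passed by edgeR (adjusted p = 2.5e-05; gene-level adjusted p = 3.2e-05), where 95 genes, or 0.984% of 9654, and 0.284% of 35158 transcripts were called, but not by limma's diffSplice (adjusted p = 0.334), which called 1 gene, or 0.0104%. In usage simulated at the estimated spread of these transcripts, 42 of 51 edgeR calls and 21 of 50 limma calls were false. Of 200 genes with 1 transcript changed 3-fold, edgeR recovered 9 and limma 29. For genes picked at random over all those simulated, a usage test that did not pass therefore said little about the absence of a change. Recovery was not measured separately for the transcripts of these 10 genes. At a low spread (dispersion 0.02 for every transcript) edgeR recovered 184 and limma 188 of 200, with 10 of 194 and 11 of 199 calls false.

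Most of Bnip3l-207 is not its own sequence. It starts in the first intron of the main transcript Bnip3l-201, with an exon of 92 bases that no other annotated transcript overlaps, and then shares exons 2 to 4. Only 90 of its 462 windows of 31 bases occur in no other transcript. Of all 35158 transcripts tested for usage, 46 were at 0 in the cold libraries alone and 113 at 0 in the controls alone. Among the 44 tested from these 10 genes, Bnip3l-207 was the one such case. The exon is shown because its reads identify the transcript (chromosome 14, 66999814 to 66999905, minus strand, GENCODE M21 transcript sequence on GRCm38).
Bnip3l-207: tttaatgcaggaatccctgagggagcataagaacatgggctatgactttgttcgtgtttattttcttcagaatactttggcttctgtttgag
The pseudogene Bnip3l-ps, which holds 64.3% of the windows of Bnip3l-207 and 28.5% of those of Bnip3l-201, was given 6.97 counts in all 6 libraries together.

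Bnip3l-201, which encodes the protein, held 79.3 ± 1.37% of the gene's counts in ctrl and 80.8 ± 1.24% in the cold (SD, n = 3 each). The short processed transcript Bnip3l-205, which runs from a short exon of its own into exons 4 to 6 of Bnip3l-201, held 16.1 ± 1.10% and 14.7 ± 0.38%. Its share was 17.2, 16.2 and 15.0% in ctrl 5, ctrl 6 and ctrl 10 and 14.6, 15.1 and 14.3% in cold 7, cold 12 and cold 16, which overlap at ctrl 10 (usage adjusted p = 1.00 by edgeR). Scaled for length the 2 were nearer to each other, with 34.1 ± 2.38% of the TPM of Bnip3l in Bnip3l-201 and 34.5 ± 1.85% in Bnip3l-205 in ctrl.

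**Figure D3:**
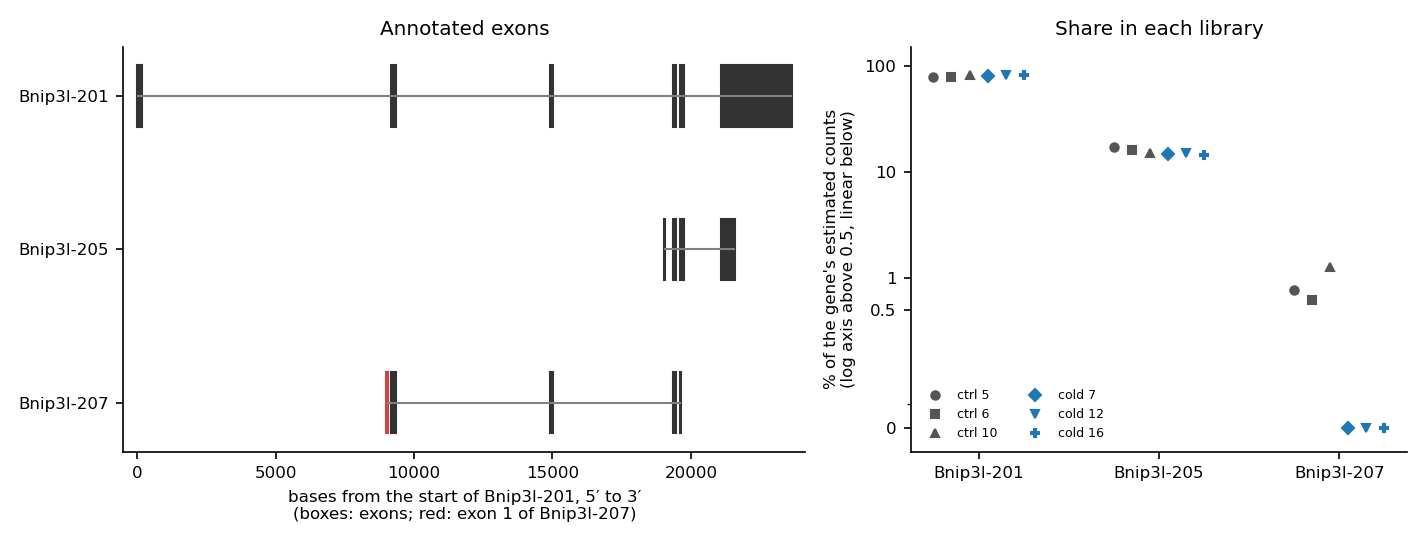
Left, annotated exons (boxes) of 3 Bnip3l transcripts against distance in bases from the start of Bnip3l-201, with exon 1 of Bnip3l-207 in red. Right, share of the gene's estimated counts in each library (axis logarithmic above 0.5%, linear below): Bnip3l-207 is at 0.628 to 1.27% in ctrl and at 0 in the cold, while Bnip3l-201 stays near 80% throughout.

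Fundc1, an outer membrane receptor active in hypoxia (chromosome X, 17556564 to 17572325, minus strand), stood at 24.2, 23.1 and 19.9 CPM in ctrl 5, ctrl 6 and ctrl 10. It stood at 22.3, 23.8 and 22.5 CPM in cold 7, cold 12 and cold 16, all inside the range of the controls (log2 fold change 0.03, SE 0.10, adjusted p = 0.925). Fundc1-201 held 81.5 ± 5.17% of the gene's counts in ctrl and 79.6 ± 12.3% in the cold (SD, n = 3 each). The second transcript Fundc1-205, which starts in the region of the second exon of Fundc1-201, varied between mice more than between groups. The share was 15.6, 19.0 and 11.0% of counts in ctrl 5, ctrl 6 and ctrl 10, and 10.5, 12.8 and 32.0% in cold 7, cold 12 and cold 16. Cold 16 alone stood apart.

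Pink1 encodes the kinase that gathers on damaged mitochondria and phosphorylates ubiquitin (chromosome 4, 138313409 to 138326307, minus strand). It stood at 377, 410 and 321 CPM in ctrl 5, ctrl 6 and ctrl 10, and at 318, 356 and 339 CPM in cold 7, cold 12 and cold 16. The groups overlapped, with the 2 highest values in controls and the lowest in cold 7. Its log2 fold change was -0.13 (SE 0.10, 95% interval -0.37 to 0.11, adjusted p = 0.590). Pink1-201 held 99.1 ± 0.36% of counts in ctrl and 99.2 ± 0.10% in the cold (SD, n = 3 each).

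**Figure D4:**
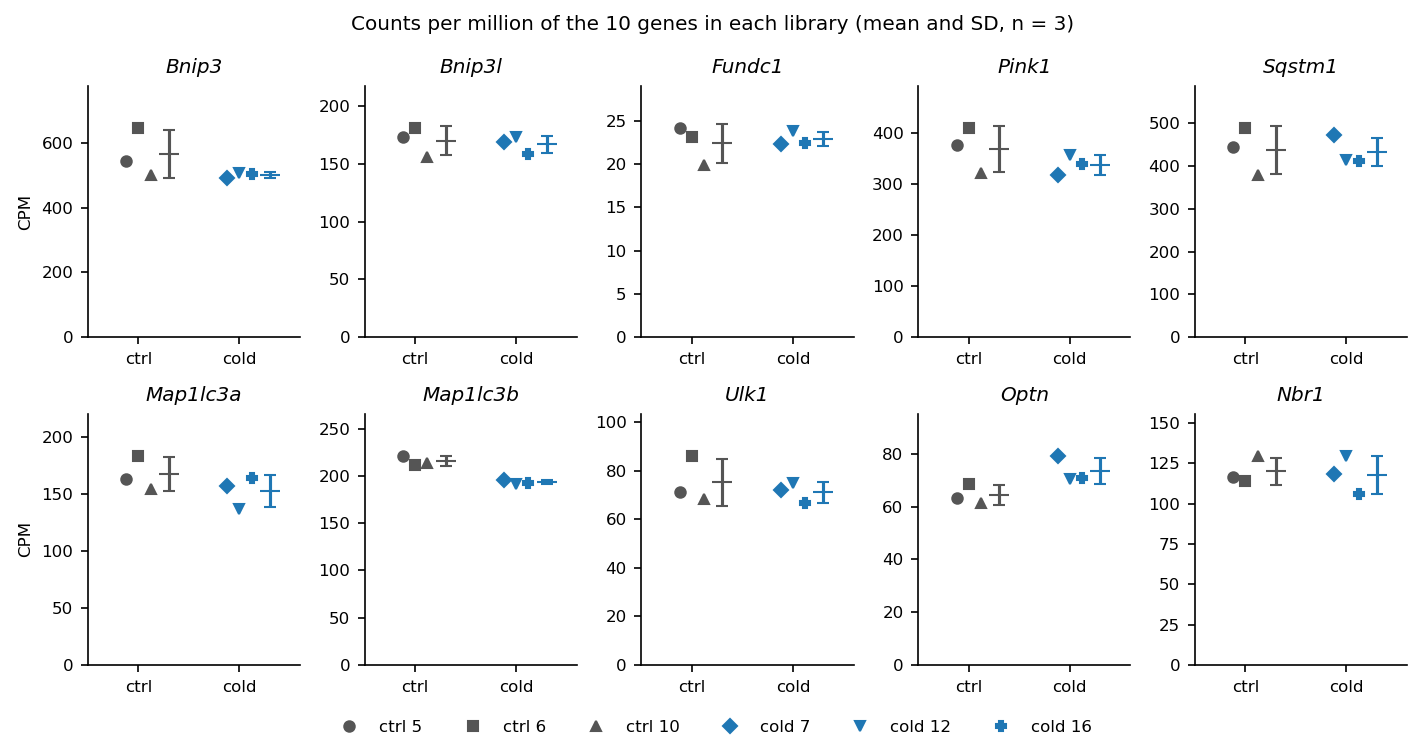
CPM of the 10 genes in each library, with mean and SD of each group (n = 3; axes start at 0; each mouse has its own symbol). The groups are apart in Map1lc3b, lower in all 3 cold libraries, and in Optn, higher in all 3, and overlap in the other 8 genes.

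The 3 controls kept a common order over most of the 10 genes. Ctrl 6 was the highest and ctrl 10 the lowest control in 7 of the 10 genes: Ulk1, Map1lc3a, Sqstm1, Optn, Bnip3, Bnip3l and Pink1. That order, singled out after the values were seen, held in 19.4% of all genes tested and in 22.7% of those with a control mean of at least 20 CPM. The median deviation of the 10 genes from their own mean over 6 libraries was 0.14 on the log2 scale in ctrl 6, 0.04 in ctrl 5 and -0.10 in ctrl 10. In the cold it was -0.02 in cold 7, 0.03 in cold 12 and -0.08 in cold 16. In 8 of the 10 genes the SD of CPM was larger in ctrl than in the cold, a count that was not set against all genes.

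Other cells of the fat pad also differed between the controls. Mesothelial markers summed to 111 CPM in ctrl 6 against 260 and 287 in ctrl 5 and ctrl 10, and fibroblast and preadipocyte markers to 2376 CPM against 3144 and 3285. Adipocyte markers summed to 51337 CPM in ctrl 6 against 45593 in ctrl 5 and 47994 in ctrl 10. Across the cold libraries mesothelial markers summed to 268, 87.3 and 92.7 CPM in cold 7, cold 12 and cold 16. Of other marker lists, the most abundant genes Upk3b (mesothelial), Col3a1 (fibroblast), Lyz2 (macrophage), Cdh5 (endothelial), Myl1 (skeletal muscle) and Hbb-bs (red blood cell) had log2 fold changes of -1.03, -0.07, -0.27, -0.31, -0.12 and 0.02, and none passed (adjusted p from 0.281 to 0.982). No gene of these 6 lists passed. Their medians were -0.44, 0.12, -0.03, -0.12, -0.05 and -0.03, with 1 of 6, 7 of 8, 2 of 8, 0 of 8, 2 of 4 and 2 of 5 genes tested higher in the cold. Upk3b, Col3a1 and Lyz2 had the lowest fold changes of their lists. Endothelial markers summed to 1455, 1510 and 1502 CPM in ctrl 5, ctrl 6 and ctrl 10 and to 1208, 1280 and 1377 CPM in cold 7, cold 12 and cold 16. Of these 8 genes 3 stood at an unadjusted p under 0.05 by edgeR, against 17.6% of all genes. The part of these cells in the order of the controls, or in the differences between groups, was not tested.

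**Figure D5:**
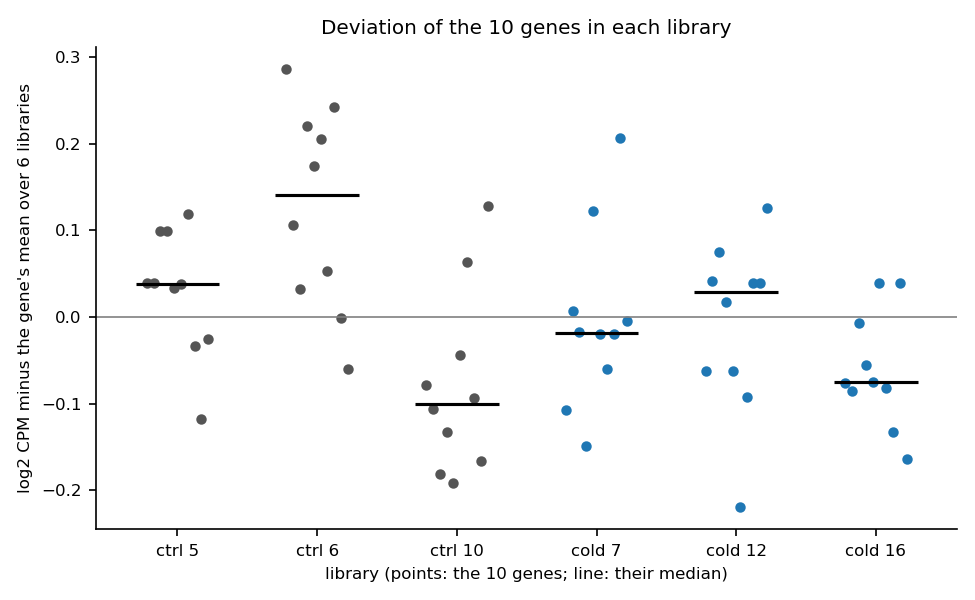
Log2 CPM of the 10 genes minus each gene's mean over the 6 libraries, by library (points, genes; line, their median). The median is highest in ctrl 6, at 0.14, and lowest in ctrl 10, at -0.10, with the cold libraries in between.

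Other genes of autophagy, the lysosome and their control were compared through 9 lists with 97 genes, of which 96 passed the filter on low counts. Of these 2 rose and 1 fell, 3.12% against 2.89% of all genes tested. At an unadjusted p under 0.05 stood 18 of the 96, a share close to the 17.6% of all genes tested. The median log2 fold change was -0.03, against -0.01 over all genes. All but 2 of the 96, Retreg1 and Spata18, lay within 0.5 of 0 on the log2 scale. In 6 of the 9 lists no gene passed. The further lists of hypoxia-induced and NRF2 pathway genes held 22 genes. Of these 0 passed by edgeR and 5 stood at an unadjusted p under 0.05, against 2.89% and 17.6% of all genes tested.

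The gene that fell is an inhibitor. Rubcn, or Rubicon, holds back the fusion of autophagosomes with lysosomes through the class III phosphatidylinositol 3-kinase (chromosome 16, 32821703 to 32877766). It stood at 48.3, 49.2 and 49.8 CPM in ctrl 5, ctrl 6 and ctrl 10 and at 37.4, 39.4 and 38.0 CPM in cold 7, cold 12 and cold 16. The groups were far apart for their spread, at -0.36 on the log2 scale (SE 0.07, adjusted p = 0.036 by edgeR and 0.0031 by DESeq2). With the transcript length offset the log2 fold change was -0.25 and did not pass (adjusted p = 0.176), and it passed without cold 7 (adjusted p = 0.040) but not without any other single library (0.062 to 0.132). In the same list of 8 genes 7 were lower, with a median of -0.18. The kinase's scaffold Pik3r4 stood at -0.31 (adjusted p = 0.075).

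Retreg1, a receptor for the autophagy of the endoplasmic reticulum, was the only call in its list of 6 (chromosome 15, 25843180 to 25973687). It stood at 4.17, 2.64 and 2.46 CPM in ctrl 5, ctrl 6 and ctrl 10 and at 7.66, 11.1 and 8.03 CPM in cold 7, cold 12 and cold 16. The groups did not overlap (log2 fold change 1.53, SE 0.25, adjusted p = 0.031 by edgeR and 6.8e-06 by DESeq2). Among the controls ctrl 5 was highest and among the cold libraries cold 7 lowest, as in the summed epithelial markers, at 36.9 CPM in ctrl 5 and 104.0 CPM in cold 7. The part of epithelial tissue was not tested. Retreg1 did not pass without ctrl 6, ctrl 10, cold 12 or cold 16 (adjusted p from 0.065 to 0.132).

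Spata18, a mitochondrial quality control gene named for spermatogenesis, rose with a log2 fold change of 4.30 (adjusted p = 0.033, SE 0.73; chromosome 5, 73651379 to 73679512). Its level was low, at 0.083, 0.134 and 0.154 CPM in ctrl 5, ctrl 6 and ctrl 10 and 3.72, 3.07 and 0.733 CPM in cold 7, cold 12 and cold 16. Cold 16 was nearest to the controls. The 4 of 6 male germ cell markers that passed the filter summed to 0.041, 3.04 and 1.28 CPM in those controls and to 41.0, 37.6 and 3.18 CPM in the cold libraries, with cold 16 likewise lowest in the cold; Prm2, the most abundant, was listed at 0 in ctrl 5, and none of the 4 passed (median log2 fold change 4.37). Their part in this rise was not tested. Spata18 did not pass without ctrl 5, ctrl 6, ctrl 10 or cold 12 (adjusted p from 0.069 to 0.133).

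Upstream and downstream lists held no call. Of 4 genes of the initiation complex, the ULK1 partners Atg13 and Rb1cc1 stood at -0.17 and -0.08 on the log2 scale (adjusted p = 0.321 and 0.705; list median -0.03). Of 9 membrane supply and WIPI genes 7 were lower, with Wdr45 at -0.29 and Atg2a at -0.22 (median -0.05). The adjusted p of Wdr45 was 0.056 by edgeR, 0.025 by DESeq2 and 0.049 without cold 7, but 0.137 to 0.210 without any other single library. The other LC3 relatives and their conjugation enzymes, 14 genes, were 7 higher and 7 lower (median -0.01), with the LC3 proteases Atg4c at 0.33 and Atg4a at 0.27 (adjusted p = 0.115 and 0.196). Of 7 genes tested from the list of other cargo receptors, which also holds the kinase Tbk1, 5 were lower (median -0.04). Among them Wdfy3 stood at -0.11, Calcoco1 at -0.12 and Tbk1 at -0.08. The mitophagy list beside Spata18 centred on 0.01 over 16 genes, with the mitochondrial phosphatase Pgam5 at 0.22 (adjusted p = 0.205), and the endoplasmic reticulum list beside Retreg1 on -0.01, with Tex264 at -0.09.

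Of 16 lysosomal genes and their MiT/TFE regulators, 7 were higher and 9 lower (median -0.04), with the sialidase Neu1 at 0.23 and cathepsin D, Ctsd, at 0.23 (adjusted p = 0.173 and 0.402). Of 16 genes of AMPK and mTORC1 control, which switch ULK1 on and off, 10 were lower (median -0.06). The mTOR inhibitor Deptor stood at 0.31 (adjusted p = 0.088, 0.015 by DESeq2, and 0.097 to 0.231 with 1 library left out). Tsc2 stood at -0.28 (adjusted p = 0.132). Hypoxia-induced genes, the company of Bnip3, were 8 higher and 4 lower of 12 (median 0.15, from -0.84 to 1.86) while Bnip3 stood at -0.17. Their summed levels overlapped between groups, at 946, 888 and 897 CPM in ctrl 5, ctrl 6 and ctrl 10 and 823, 911 and 880 CPM in cold 7, cold 12 and cold 16. Ankrd37 stood at 1.86 (adjusted p = 0.082 by edgeR), at a level of 0.739 ± 0.174 CPM in ctrl and 2.66 ± 1.41 CPM in the cold (SD, n = 3 each). Its adjusted p was 0.011 by DESeq2, 0.023 with no low-count filter and 0.0067 without cold 7. Without any other single library it was 0.185 to 0.251. The glucose transporter Slc2a1 stood at 0.31 (adjusted p = 0.158). Of 10 NRF2 pathway genes, the antioxidant programme in which p62 takes part, 9 were higher (median 0.20), with Gclc at 0.25 and Gsr at 0.18 (adjusted p = 0.224 and 0.333), while Sqstm1 stood at -0.02.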

How the data were processed

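The protocols in the labels describe snap-frozen whole fat, column purification of RNA, and a directional kit read as 50 nt pairs. Tools named in the submitters' processing notes are bcl2fastq, cutadapt and Salmon, on GRCm38, without versions or settings. Each library has its own Salmon table, deposited by the authors with estimated counts and TPM for 140658 transcripts, per the file headers; 521 identifiers (0.124 to 0.394% of counts) matched no GENCODE M21 gene and were left out. Estimated counts were summed by gene and rounded. edgeR 4.0.16 (R 4.3.3) tested 17852 genes after filterByExpr (minimum count 10, minimum total 15) with TMM scaling, glmQLFit (robust) and glmQLFTest, two-sided; calls had a Benjamini-Hochberg adjusted p under 0.05. SEs and 95% intervals come from the quasi-likelihood F. Transcript usage was tested with diffSpliceDGE. Ratios use deposited TPM without a pseudocount.

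The 10 genes and all lists were chosen with earlier results of these data known. Named were all 10 genes, the 2 genes of smallest p and all calls of each pathway list, the most abundant gene of each marker list, and transcripts with a mean share of at least 10%; Bnip3l-207, Optn-201, Nbr1-203 and Nbr1-205 were added after their values were seen. On simulated counts of 17511 genes the gene test found 32, 64, 88 and 84% of genes changed 1.5-, 2-, 4- and 0.25-fold, with 11.3% of calls false. Alternatives were RLE factors, no count filter, a length offset, DESeq2 1.42.0, limma 3.58.1 diffSplice, a share minimum, CPM or a pseudocount of 1 for ratios, and libraries left out.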

Additional observations from a re-analysis of the deposited data

How the results depend on the processing

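None of the 10 genes passed under any of the 11 alternatives of the gene test. The number of all genes called moved from 516 to 924 with no low-count filter, 1340 with DESeq2 and 1230 without ctrl 5 and cold 7 together, and ran from 0 to 1090 with 1 library left out (0 without ctrl 6, ctrl 10 or cold 12, 3 without cold 16, 695 without ctrl 5, 1090 without cold 7; 2546 to 3534 genes then at an unadjusted p under 0.05). With 1 library left out the log2 fold change turned sign in 6 named genes, running from -0.080 to 0.028 in Bnip3l, -0.044 to 0.096 in Fundc1, -0.102 to 0.081 in Sqstm1, -0.141 to 0.036 in Ulk1, -0.082 to 0.044 in Nbr1 and -0.174 to 0.025 in Tex264. It ran from -0.24 to -0.05 in Bnip3, -0.17 to -0.13 in Map1lc3b and 0.13 to 0.25 in Optn. Usage calls went from 95 to 1 gene with limma, 20 with a share of at least 10%, and 139 to 180 with 1 library left out; of the 10 genes 1 to 2 were then called (0 with limma and 0 with the share minimum, which drops Bnip3l-207; 2 without cold 12, the other being Nbr1). The cause of these changes was not tested. No paired analysis was possible because the mouse numbers differ between the groups. With 388 or more counts per library in each of the 10 genes, depth bears most on their minor transcripts.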

Other observations

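Of the 44 transcripts of the 10 genes tested for usage, 6 were at 0 in at least 1 library, and 3 of these had at least 50 counts in another, against 5356 and 2947 of 35158 over all genes, so neither was more frequent in the 10 genes. Optn-201, protein-coding, had 0, 0 and 57.5 estimated counts in ctrl 5, ctrl 6 and ctrl 10 and 150, 0 and 119 in cold 7, cold 12 and cold 16. Nbr1-205, also protein-coding, had 66.8, 147 and 88.2 counts in those controls and 0, 76.9 and 0 in those cold libraries. As a share of the gene's counts its groups did not overlap, at 2.37, 5.77 and 3.49% in those controls and 0, 2.34 and 0% in those cold libraries. The gap between ctrl 5 and cold 12 was small. Its usage did not pass after adjustment (unadjusted p = 0.061 by edgeR's usage test). A lack of overlap at shares below 10% was not counted over all genes. Nbr1-203 had 26.0, 23.8 and 5.33 counts in the controls and 106, 62.7 and 0 in the cold libraries. Such zeros fell within groups as well as between them.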
